A study of Mus musculus with 12 samples.

Results

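Slc20a1, Slc20a2, Xpr1 and Slc25a3 encode the membrane proteins that bring inorganic phosphate into a mouse cell, let it out and carry it into mitochondria. The 4 genes were taken by symbol from a table of ribosome footprints with 22034 gene symbols and from a table of poly(A) RNA with 49997, and each was present in both. They were selected on the footprint change of Slc20a1 with treatment, a large loss already known in wild-type and in Gcn2 knockout cells. Footprint changes with treatment are therefore given below as a description of the members, without a test. In the mm10 build of the mouse genome, RefSeq places Slc20a1 on chromosome 2 (129198773 to 129211615) and Slc20a2 on chromosome 8 (22476700 to 22569616). Xpr1 lies on chromosome 1 (155275657 to 155417444) and Slc25a3 on chromosome 10 (91116574 to 91124046).

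Phosphate enters most mammalian cells with sodium through Slc20a1 (PiT-1) and its relative Slc20a2 (PiT-2), which are widely expressed and were first known as receptors of retroviruses. Xpr1, also found as a retrovirus receptor, is the phosphate exporter of the plasma membrane, and its SPX domain binds inositol pyrophosphates, small signalling molecules that report on cellular phosphate. Slc25a3 sits in the inner mitochondrial membrane and supplies the phosphate from which ATP synthase makes ATP, and it also carries copper.

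The cells were ES-E14TG2a mouse embryonic stem cells in which the release factor eRF1, the protein that ends translation at stop codons, carries a dTAG degron. All groups had this tag and grew in 2i medium (MEK and GSK3 inhibitors) with LIF. Footprints, the pieces of mRNA covered by ribosomes, were counted in 4 groups: untreated wild type, wild type given 500 nM dTAG-13 for 1 h, a compound that directs the degradation of tagged proteins, untreated Gcn2 knockout and treated Gcn2 knockout. Gcn2 is a kinase that responds to amino acid shortage and stalled ribosomes. Poly(A) RNA was sequenced in untreated and treated wild-type cells only. Each group had 2 biological replicates, A and B, which makes 12 libraries. The labels name no vehicle-treated cells and no treated cells without the tag, so effects of the compound and of eRF1 loss cannot be told apart. Whether a line was 1 clone was not given in the sources used here.

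Footprint libraries held 7874804 to 19691716 counts and RNA libraries 17462458 to 24256097. Levels are CPM, a count scaled to a common library total after TMM normalisation between libraries, so they are shares of a library and a change common to all mRNAs was not measured. Eif2ak4, which encodes Gcn2, had 27.7 to 34.0 CPM of footprints in the 4 wild-type libraries and 2.33 to 5.36 CPM in the 4 knockout libraries. The 9 stem cell markers, among them Pou5f1 and Nanog, summed to 9369.8 to 10224 CPM of footprints in every library, against 4.36 to 9.29 CPM for 7 fibroblast markers and 2.84 to 5.59 CPM for 5 primitive endoderm markers. Of the 4 endoderm markers tested, Gata4 fell in treated knockout cells (log2 change −1.17, SE 0.335, edgeR adjusted p = 0.0472), while DESeq2 called 0 of the 4. The summed endoderm markers there were 2.84 (A) and 3.43 (B) CPM treated and 5.59 (A) and 5.24 (B) CPM untreated, and their part in the knockout results was not tested.

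Slc20a1, the plasma membrane importer, had the largest footprint differences of the 4 members as a fold. Untreated wild-type libraries held 118 (A) and 149 (B) CPM, and treated ones 45.0 (A) and 37.4 (B) CPM. In Gcn2 knockout cells the untreated libraries held 124 (A) and 119 (B) CPM and the treated ones 22.3 (A) and 29.6 (B) CPM. All 4 treated libraries thus lay below all 4 untreated ones, and both treated knockout libraries lay below both treated wild-type ones. These footprints picked the gene, and the share of all genes with such separations was not counted. The lowest value rested on 259 counts, for which an exact 95% Poisson interval, covering counting error only, ran from 19.6 to 25.1 CPM.

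In the fit, Slc20a1 footprints were 3.25-fold lower in treated wild-type cells (log2 change −1.70, SE 0.163), the 14th lowest change of 12267 genes. In treated knockout cells they were 4.68-fold lower (log2 change −2.23, SE 0.167), the 5th lowest. As background, of all genes tested at an edgeR adjusted p under 0.05, 1.94% were called lower and 2.94% higher in wild-type cells and 5.71% lower and 3.16% higher in knockout cells.

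**Figure D1:**
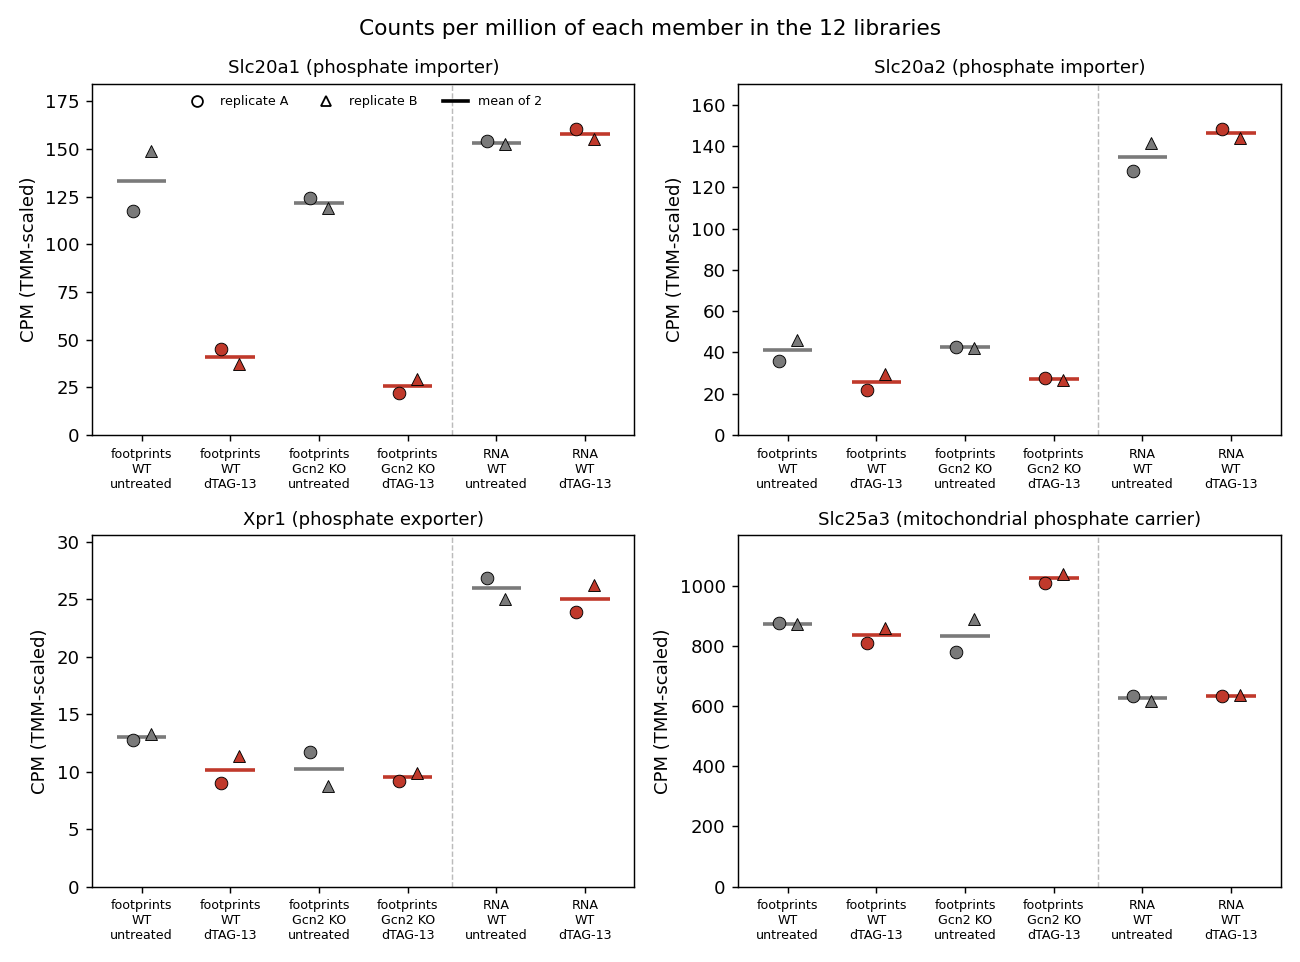
CPM (vertical axis, from 0, a scale of its own per gene) of the 4 members in each library, with footprints left and RNA right of the dashed line, grey for untreated and red for dTAG-13, circles for replicate A, triangles for B and bars for the mean of 2. Treated Slc20a1 footprints sit between 22.3 and 45.0 CPM and untreated ones between 118 and 149 CPM, while its RNA stays between 152 and 161 CPM.

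Slc20a2, the second sodium-coupled importer, showed smaller differences of the same sign. Its footprints were 35.9 (A) and 46.2 (B) CPM in untreated and 22.0 (A) and 29.5 (B) CPM in treated wild-type cells. Knockout cells held 42.6 (A) and 42.2 (B) CPM without treatment and 27.7 (A) and 26.5 (B) CPM with it. Untreated and treated libraries did not overlap in either genotype, as was so for 45.1% of all genes in wild-type and 59.5% in knockout cells. The treated levels of the 2 genotypes overlapped. The log2 change was −0.66 (SE 0.166) in wild-type and −0.65 (SE 0.164) in knockout cells, a 1.58-fold and a 1.57-fold lower level. Leaving out 1 library at a time moved the wild-type value between −0.89 and −0.46, with the smallest loss without untreated wild-type library B and with −0.48 without treated wild-type library A. In the knockout the same fits gave −0.71 to −0.64.

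Xpr1, the exporter, had few footprints, 68 to 256 counts per library. Wild-type libraries held 12.8 (A) and 13.3 (B) CPM untreated and 9.02 (A) and 11.4 (B) CPM treated. Knockout libraries held 11.7 (A) and 8.74 (B) CPM untreated and 9.20 (A) and 9.89 (B) CPM treated. The groups did not overlap in wild-type cells, as was so for 45.1% of all genes, but they did in the knockout. The log2 changes were −0.34 (SE 0.198) and −0.10 (SE 0.198), with 95% intervals of −0.76 to 0.09 in wild-type and −0.53 to 0.33 in knockout cells. Both intervals include 0.

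Slc25a3, the mitochondrial carrier, had 6114 to 17517 footprint counts per library. Wild-type levels were 875 (A) and 873 (B) CPM untreated and 811 (A) and 858 (B) CPM treated. In the knockout they were 779 (A) and 888 (B) CPM untreated and 1010.2 (A) and 1039.7 (B) CPM treated. Treated libraries were thus a little below untreated ones in wild-type cells and above them in the knockout, without overlap in either. The log2 changes were −0.07 (SE 0.117) and 0.30 (SE 0.117). Of all genes, 45.1% had untreated and treated wild-type libraries that did not overlap, and 59.5% did in the knockout, so a lack of overlap was common.

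**Figure D2:**
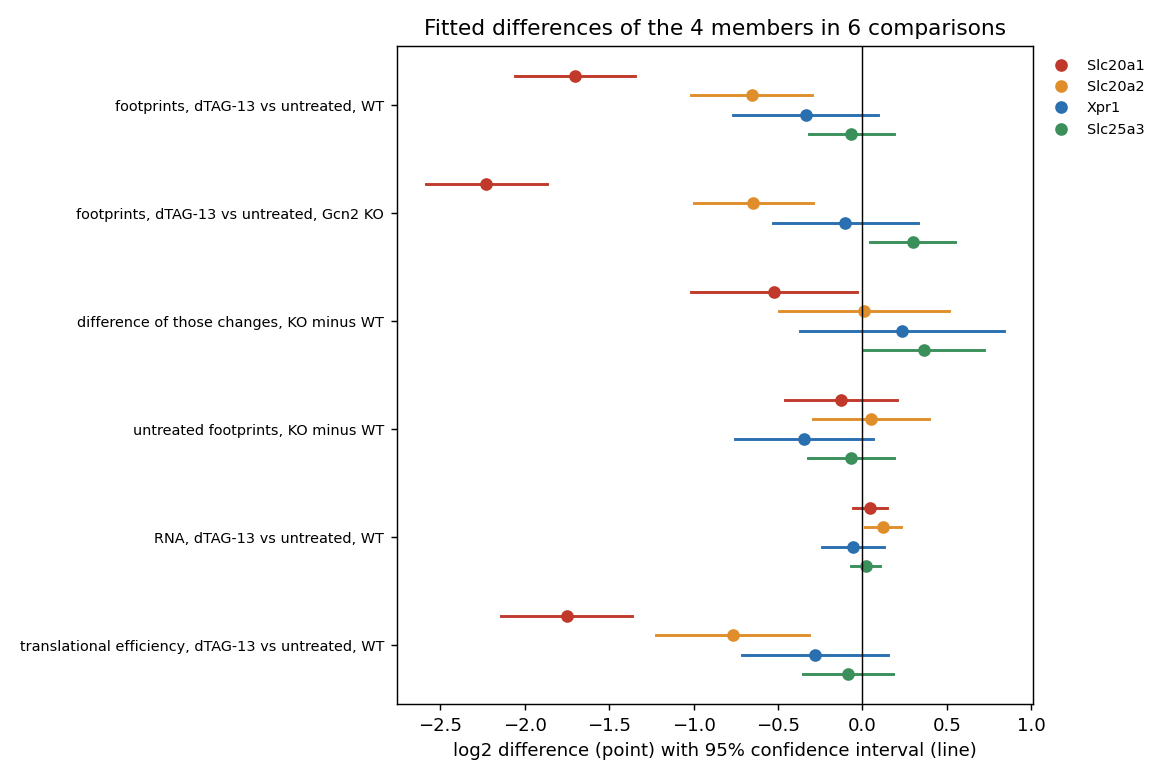
Fitted log2 differences (points) with 95% confidence intervals (lines) for the 4 members in the 6 comparisons, on a horizontal log2 axis with 0 marked. Slc20a1 lies at −1.70 and −2.23 for treatment in the 2 genotypes and at 0.05 for RNA, whereas Xpr1 and Slc25a3 stay between −0.35 and 0.36 in all 6.

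Poly(A) RNA came from other libraries than the footprints that led to this choice of genes, so its change with treatment was tested. Slc20a1 RNA was 154 (A) and 152 (B) CPM without dTAG-13 and 161 (A) and 156 (B) CPM with it. The treated libraries were the higher ones, by a log2 change of 0.05 (SE 0.0506, 95% interval −0.06 to 0.15, edgeR adjusted p = 0.993). A fall in RNA as large as that in footprints lay outside this interval. Slc20a2 RNA was 128 (A) and 141 (B) CPM untreated and 148 (A) and 144 (B) CPM treated, a log2 change of 0.12 (SE 0.0535, edgeR adjusted p = 0.94). Leaving out 1 RNA library at a time moved the change of Slc20a2 between 0.05 and 0.20, with the largest value without untreated RNA library B. Xpr1 RNA ranged from 23.9 to 26.9 CPM and Slc25a3 RNA from 618 to 636 CPM over the 4 libraries, and treated and untreated values overlapped for both. Their log2 changes were −0.06 (SE 0.0912) and 0.02 (SE 0.0432).

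By edgeR, 0 of the 4 members passed in RNA, with 1 at an unadjusted p under 0.05, and 0 passed by DESeq2. Of all genes tested in RNA 0.163% passed, or 26 of 15955. In Slc20a1 and Slc20a2 the untreated and treated RNA libraries did not overlap, as was so for 33.6% of all genes. 

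A promoter acts at the level of RNA, where Slc20a1 showed no called change. As a description, the 250 bases before the main annotated start of Slc20a1, the member with the largest footprint fold differences, are shown. A link of this sequence to the footprint differences was not tested. The sequence is from RefSeq for GRCm38 (the assembly of mm10), plus strand, chr2:129198523-129198772, and RefSeq promoter windows were matched for 3 of the 4 members (Slc20a1, Xpr1 and Slc25a3). Capitals mark the E-box CACGTG, bound by MYC, USF and related factors, and the CCAAT box.
Slc20a1: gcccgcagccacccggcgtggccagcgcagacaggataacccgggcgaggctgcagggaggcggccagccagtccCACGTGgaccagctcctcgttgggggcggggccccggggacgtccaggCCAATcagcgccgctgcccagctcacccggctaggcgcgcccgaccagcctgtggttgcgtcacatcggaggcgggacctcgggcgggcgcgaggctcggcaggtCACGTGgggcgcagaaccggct
The window holds E-boxes that begin 175 and 22 bases before the start and a CCAAT box that begins 127 bases before it, and 75.2% of its bases are G or C. Of 32851 promoter windows, each searched on both strands, 6.02% held the E-box, which reads the same on both, and 33.8% held the CCAAT box. Xpr1 had a CCAAT box 210 bases before its start and no E-box. The letters TATAAA, found in 12.4% of windows, were in no window of these members. The same was so for the composite element of the stress factor ATF4, searched as TGATGNAAN and found in 3.44% of windows. The window of Slc25a3 and a second window of Slc20a1 held no match to the 4 motifs. These matches describe letters in the sequence and are no evidence of binding.

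Translational efficiency here is the level of footprints relative to that of RNA. Its change with treatment was fitted as a term for assay by treatment in the 8 libraries of wild-type cells. This change shares the wild-type footprints with the values that picked Slc20a1, so member values are a description. For Slc20a1 the ratio of mean footprint CPM to mean RNA CPM went from 0.869 in untreated to 0.260 in treated cells. The extremes over library combinations were 0.763 to 0.977 and 0.233 to 0.289. The fitted log2 change was −1.75 (SE 0.175), and it ranged from −1.91 to −1.58 when each of the 8 libraries was left out.

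For Slc20a2 the ratio went from 0.305 to 0.176, a log2 change of −0.77 (SE 0.204, 95% interval −1.22 to −0.32). For Xpr1 it went from 0.502 to 0.406 (log2 change −0.28, SE 0.195) and for Slc25a3 from 1.395 to 1.32 (−0.09, SE 0.121). Of all genes tested, 1.47% were called in this comparison. Ratios of different genes cannot be ranked here, because footprint and RNA counts depend on coding and transcript lengths that were not used.

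The comparison of untreated cells set Gcn2 knockout against wild-type footprints. Loss of Gcn2 and other differences between the lines cannot be told apart in it. It shares the untreated libraries with the changes that picked Slc20a1, so the value of that gene is a description. Values per library are those given above, and they overlapped between genotypes for Slc20a1, Slc20a2 and Slc25a3. For Xpr1 both knockout libraries, at 11.7 and 8.74 CPM, lay below both wild-type ones, and 31.7% of all genes had groups that did not overlap here. The knockout minus wild-type log2 differences were −0.13 (95% interval −0.46 to 0.20) for Slc20a1 and 0.05 (−0.30 to 0.39) for Slc20a2. For Xpr1 the difference was −0.35 (−0.76 to 0.06) and for Slc25a3 −0.07 (−0.32 to 0.18). With edgeR 0 of the 4 passed (0 at an unadjusted p under 0.05, and 0 by DESeq2), and 1 gene in all did, 0.00815% of those tested.

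The difference between the knockout and the wild-type response uses the footprints that picked Slc20a1 and is given with its interval. It was −0.52 (SE 0.228, 95% interval −1.02 to −0.03) for Slc20a1, whose treated levels were lower in the knockout. It was 0.36 (SE 0.165, 95% interval 0.01 to 0.72) for Slc25a3, 0.24 (−0.37 to 0.84) for Xpr1 and 0.01 (−0.49 to 0.51) for Slc20a2. These intervals are those of single genes and are not adjusted for the number tested. After adjustment over all genes, edgeR called 0 of the 4 members, with 2 at an unadjusted p under 0.05, and DESeq2 called 0, with 1. These counts include Slc20a1, which these footprints picked, so they are a description and no test. By edgeR, 0.0489% of all genes were called in this comparison. Leaving out 1 library moved the Slc20a1 difference between −0.79 and −0.36.

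Ratios of 2 members within a library do not depend on how libraries are scaled, and gene length cancels when libraries are compared. Untreated wild-type libraries held 3.27 (A) and 3.23 (B) footprint counts of Slc20a1 for each of Slc20a2, and untreated knockout libraries 2.92 (A) and 2.82 (B). Treated libraries held 2.04 (A) and 1.27 (B) in wild-type and 0.804 (A) and 1.12 (B) in knockout cells. The treated wild-type libraries differed from each other more than the untreated ones, but the treated and untreated ranges did not meet. The share of all gene pairs whose ratios separate in this way was not counted, for these ratios or those below. In RNA the ratio was 1.20 (A) and 1.08 (B) untreated and 1.08 (A) and 1.08 (B) treated.

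Against the exporter the shift was of the same kind. Footprint counts of Slc20a1 per count of Xpr1 were 9.20 (A) and 11.2 (B) in untreated and 4.99 (A) and 3.29 (B) in treated wild-type libraries. In the knockout they were 10.6 (A) and 13.6 (B) untreated and 2.42 (A) and 2.99 (B) treated. RNA ratios lay between 5.73 and 6.73 in all 4 RNA libraries, with untreated and treated values overlapping. The Slc20a1 to Xpr1 footprint ratio was thus lower in each treated library than in each untreated one. For Slc20a2, the second importer, this was not so. Its counts per count of Xpr1 were 2.81 (A) and 3.48 (B) in untreated and 2.44 (A) and 2.60 (B) in treated wild-type libraries, and 3.62 (A) and 4.83 (B) in untreated and 3.01 (A) and 2.68 (B) in treated knockout libraries. Treated and untreated values did not overlap within a genotype, but they did over all 8 libraries. The Slc20a1 ratios contain the Slc20a1 footprints that picked the genes and carry no test.

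**Figure D3:**
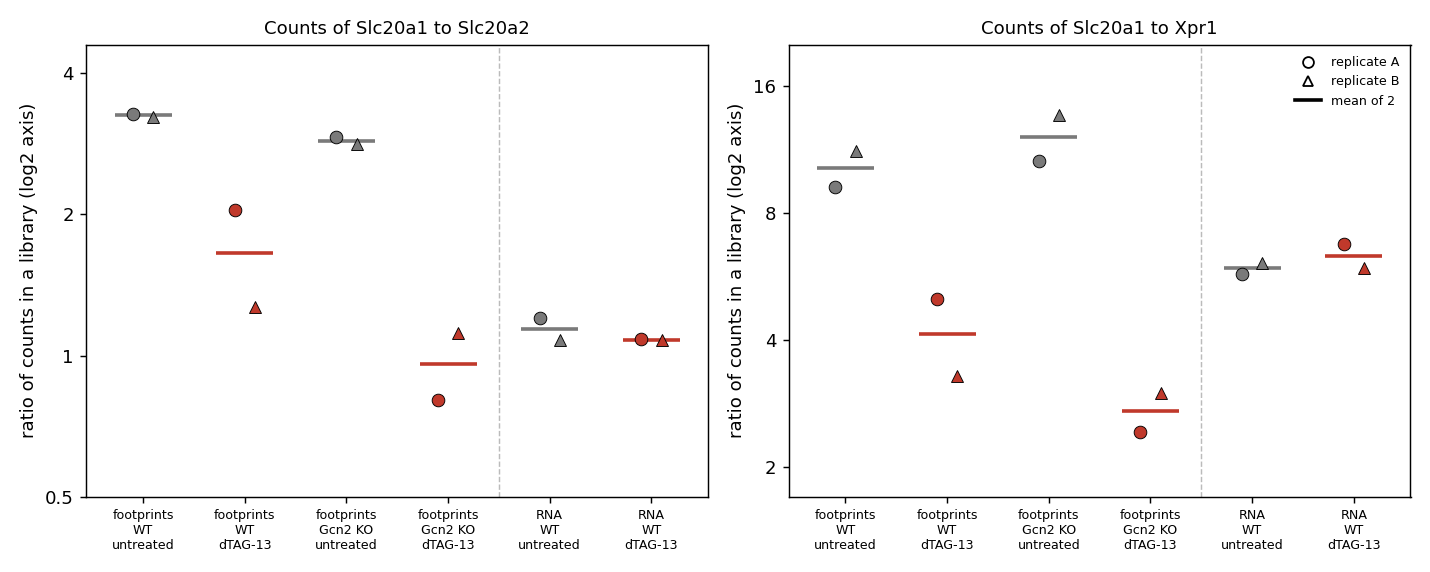
Ratio of Slc20a1 counts to Slc20a2 counts (left) and to Xpr1 counts (right) within each library, on log2 axes, grey for untreated and red for dTAG-13, circles for replicate A, triangles for B and bars for the arithmetic mean of 2. Footprint ratios in treated libraries (0.804 to 2.04 and 2.42 to 4.99) lie below those in untreated ones (2.82 to 3.27 and 9.20 to 13.6), and RNA ratios do not separate in this way.

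The members did not share one footprint pattern. Over the 8 footprint libraries, which hold 2 genotypes and 2 treatments, log2 CPM of Slc20a1 correlated with that of Slc20a2 at a Pearson r of 0.855. It correlated with Xpr1 at 0.544 and with Slc25a3 at −0.60. Likeness was searched among 8143 genes with a mean log2 CPM of at least 3, without predicted genes (Gm and Rik symbols) and pseudogenes. Those most like Slc20a1 included R3hdm1 (r = 0.992), Slc35a5 (0.989), Nrf1 (0.986) and Cald1 (0.986). R3hdm1 went from 22.3 (A) and 24.7 (B) to 12.7 (A) and 12.1 (B) CPM in wild-type cells, and from 23.7 (A) and 23.5 (B) to 7.13 (A) and 9.27 (B) CPM in the knockout. Most like Slc20a2 were Rcbtb1 (r = 0.971) and Ddx23 (0.969). Most like Xpr1 were Phyh (0.969) and Tmem263 (0.961), and most like Slc25a3 were Tmem41a (0.993) and Mknk2 (0.988). With 8 libraries in 4 groups, high correlations are easy to reach, and they are given as a description.

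Other genes of phosphate handling were counted from lists set by function, but with earlier results of these data known. Their calls and adjusted p-values are therefore a description. Inositol pyrophosphates, the ligands of the SPX domain of Xpr1, are made by Ip6k and Ppip5k kinases and removed by Nudt phosphatases. The list for this group also held Ippk, Ipmk, Itpk1 and Minpp1, which belong to none of these families. Of 10 genes of the whole list tested in wild-type footprints, 2 fell and 0 rose, with a median log2 change of −0.34 (−0.01 over all genes). DESeq2 called 4 of them lower. In all, 4.88% of genes passed in wild-type and 8.88% in knockout cells. Ppip5k2, a kinase that makes the most phosphorylated inositol pyrophosphate, fell in wild-type footprints from 31.5 (A) and 39.5 (B) to 21.4 (A) and 20.9 (B) CPM (log2 change −0.75, SE 0.151, edgeR adjusted p = 0.0135). Nudt4, an inositol pyrophosphate phosphatase, fell from 39.1 (A) and 38.3 (B) to 22.2 (A) and 28.8 (B) CPM (log2 change −0.59, SE 0.152, edgeR adjusted p = 0.0443).

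In the knockout 1 of the 10 fell and 0 rose, with a median of 0.10 (0.04 over all genes). It was again Ppip5k2, from 30.0 (A) and 30.1 (B) to 11.3 (A) and 11.7 (B) CPM (log2 change −1.38, SE 0.156, edgeR adjusted p = 0.000336). This call held in each of the 13 alternative fits. Nudt4 had a knockout change of 0.15 (SE 0.148, edgeR adjusted p = 0.597), and the difference between the genotypes did not pass (0.73, SE 0.212, edgeR adjusted p = 0.255). In RNA 0 of 11 genes of the group passed by edgeR (2 at an unadjusted p under 0.05) or DESeq2, and Ppip5k2 RNA had a log2 change of 0.00 (SE 0.0589). The wild-type call of Ppip5k2 was lost without untreated library B (log2 change −0.58), treated library A (−0.77) or treated library B (−0.73) of the wild type. The call of Nudt4 was lost without untreated library A (−0.57), untreated library B (−0.60) or treated library A (−0.43) of the wild type, or without either treated knockout library (−0.59). Both calls were lost with the wild-type libraries fitted alone.

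Kidins220, a scaffold protein known to form a complex with Xpr1, fell in knockout footprints from 17.95 (A) and 11.9 (B) to 8.68 (A) and 8.996 (B) CPM (log2 change −0.76, SE 0.214, edgeR adjusted p = 0.0447). The untreated replicates lay far apart, and the change was −0.43 and no longer passed without untreated knockout library A. It also did not pass without treated knockout library A (−0.77) or B (−0.82). In wild-type cells Kidins220 had 12.03 (A) and 15.2 (B) CPM untreated and 13.9 in both treated libraries (log2 change 0.03, SE 0.211). The difference between the genotypes did not pass (−0.79, SE 0.301, edgeR adjusted p = 0.392).

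Slc25a3 works beside ATP synthase and the ADP/ATP carriers in the ATP synthasome. Of 18 genes of these partners, 4 rose and 0 fell in knockout footprints, against 3.16% of all genes called higher, and the list's median log2 change was 0.16 (0.04 over all genes). The 4 encode small subunits of the membrane part of ATP synthase. Atp5mg rose from 209 (A) and 248 (B) to 360 (A) and 350 (B) CPM (log2 change 0.64, SE 0.118, edgeR adjusted p = 0.00538), and Atp5me from 174 (A) and 212 (B) to 301 (A) and 281 (B) CPM (0.59, SE 0.128). Atp5mf (0.53, SE 0.120) and Atp5mc2, 1 of several genes for the ring subunit c (1.28, SE 0.289), also rose. Each of these 4 calls was lost without untreated knockout library A, treated knockout library A or treated knockout library B, and that of Atp5mc2 also without untreated knockout library B. Over all alternative fits the change ranged from 0.52 to 0.77 for Atp5mg, 0.46 to 0.74 for Atp5me, 0.44 to 0.60 for Atp5mf and 1.08 to 1.51 for Atp5mc2.

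In wild-type footprints 0 of the 18 passed by edgeR (3 at an unadjusted p under 0.05) or DESeq2, with a median of −0.03. The differences between the genotypes did not pass for any of the 18 by edgeR (1 at an unadjusted p under 0.05) or DESeq2. In RNA 0 of 17 passed by edgeR (0 at an unadjusted p under 0.05) or DESeq2. Several of these genes, Slc25a3 among them, have near-identical copies in the genome, and the counting of reads that fit more than one copy was not given in the sources used here, so their levels are uncertain.

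Of 8 other carriers of phosphate in organelle membranes, among them the ATP-Mg/phosphate carriers and the glucose-6-phosphate transporter Slc37a4, 0 passed by edgeR in either genotype (2 in wild-type and 3 in knockout cells at an unadjusted p under 0.05), and DESeq2 called 0 and 1. Of the type II sodium-phosphate cotransporters, which serve kidney and gut, only Slc34a3 had enough footprints to be tested. Its log2 change was −0.03 (SE 0.389) in wild-type and 0.38 (SE 0.351) in knockout cells. Among 6 genes that release phosphate or act on pyrophosphate, 0 passed in wild-type cells by edgeR (2 at an unadjusted p under 0.05) or DESeq2, and Phospho1 alone passed in the knockout, on 2 (A) and 2 (B) counts untreated and 6 (A) and 11 (B) treated, and DESeq2 called 0 there. Alpl, the alkaline phosphatase long used to stain stem cells, had log2 changes of 0.03 (SE 0.119) and 0.06 (SE 0.119).

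**Figure D4:**
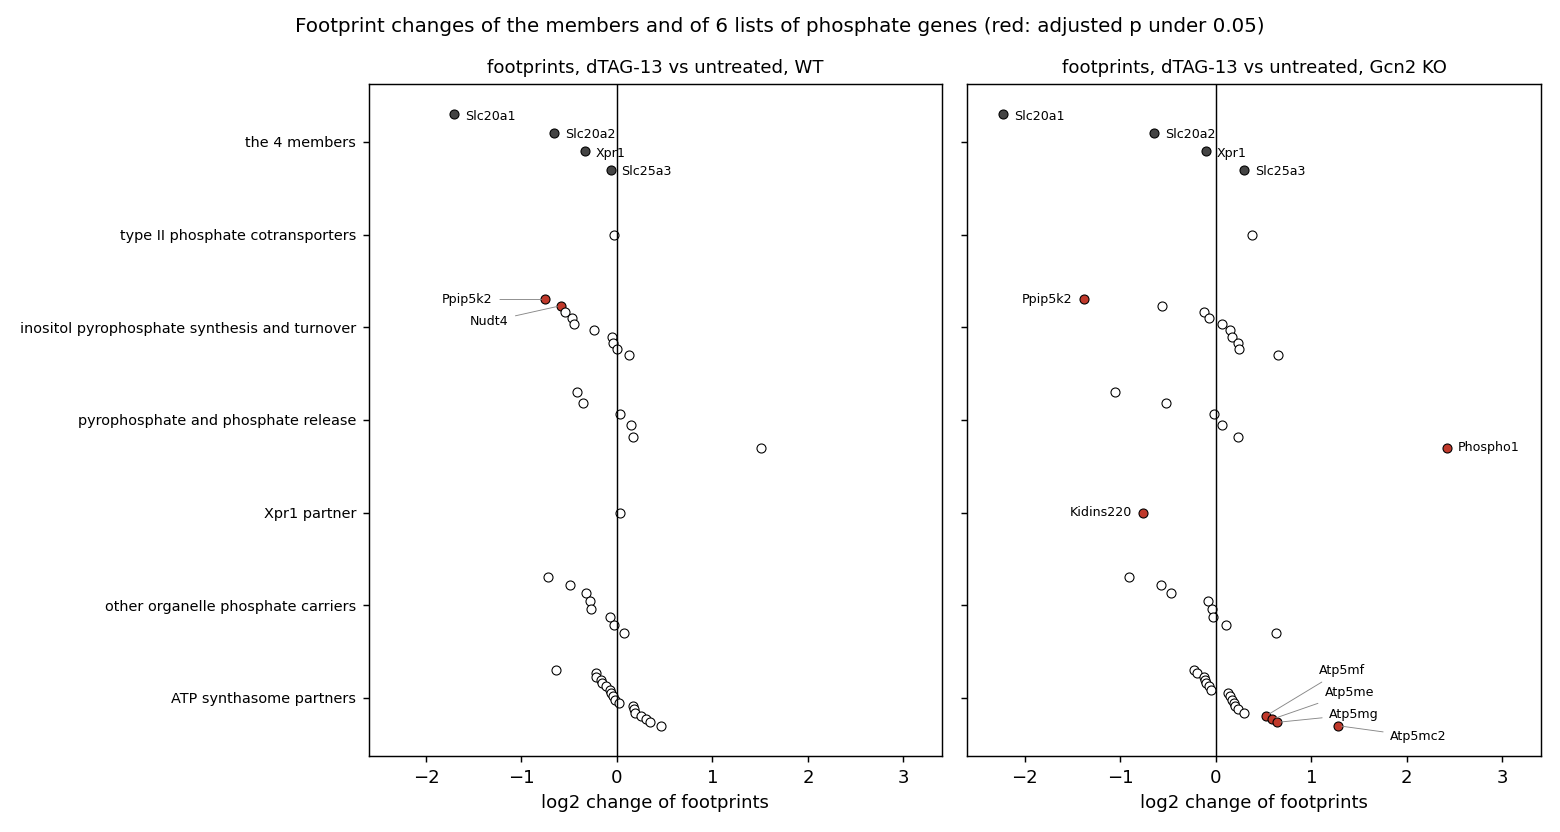
Log2 footprint change with dTAG-13 in wild-type (left) and Gcn2 knockout cells (right), 1 point per gene, for the 4 members (dark) and for 6 lists of phosphate genes (red where the edgeR adjusted p was under 0.05, else white; vertical position within a row is only for display). Ppip5k2 is red on both sides, at −0.75 and −1.38, and 4 ATP synthase subunits are red between 0.53 and 1.28 on the right.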

How the data were processed

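The authors deposited unnormalised whole-number counts for each gene symbol and library, in 1 table for footprints and 1 for poly(A) RNA. The submitters' processing notes list mm10, HISAT2 2.1.0, cutadapt and CASAVA 1.4. Counting tool, annotation and regions counted were not given in the sources used here. For treated knockout replicate B the label description carries the column name of A, so its column was matched by its title only.

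Counts were fitted with edgeR 4.0.16 in R 4.3.3 (quasi-likelihood, robust, TMM, filterByExpr with minimum count 10, Benjamini-Hochberg over all genes tested, two-sided, threshold 0.05): all 8 footprint libraries together (12267 genes), the 4 RNA libraries (15955) and, for translational efficiency, the 8 wild-type libraries (12887, TMM within assay). SEs come from the change and its F statistic. Each group had 2 libraries, so an exact permutation test of 1 gene could not reach the threshold. Whether the biological replicates were separate cultures is not stated, so p-values rest on the spread between these samples only. That spread was pooled over the groups of a fit and moderated across genes. Alternatives were DESeq2 1.42.0, RLE scaling, no filter, a replicate block, each library left out and each genotype alone. The scripts were tested on simulated data.

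The members and the gene lists were chosen with earlier results of these data known. Pathway genes were named where called, at most 4 per list and comparison, and genes most like a member by Pearson r of log2 CPM (prior count 2) over the 8 footprint libraries. No protein sequences or coding lengths were used. A gene that the last rule named is not reported here.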

Additional observations from a re-analysis of the deposited data

How the results depend on the processing

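Slc20a1 footprints stayed lower with treatment under each alternative run, with log2 changes of −1.86 to −1.52 in wild-type and −2.49 to −2.07 in knockout cells. Directions that turned belonged to members with changes near 0. They were Slc20a2 in the difference between genotypes (−0.0159 with RLE scaling, −0.0135 with DESeq2, −0.0184 without a filter, and −0.18 to 0.21 without each library), Xpr1 in the knockout (−0.30 to 0.13) and in RNA (−0.12 to 0.0165), and the untreated differences of Slc20a1 (−0.29 to 0.0514), Slc20a2 (−0.12 to 0.24) and Slc25a3 (−0.16 to 0.0239), each without a library in turn.

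Counts of all genes called moved more. Without a filter they were 1048 (599 in the main analysis) for wild-type footprints, 1658 (1089) for the knockout, 192 (6) for the difference, 113 (1) for untreated cells and 459 (190) for translational efficiency. DESeq2 gave 116 for the difference, 31 for untreated cells, 8 (26) for RNA and 435 for translational efficiency. With a genotype fitted alone the count was 19 in wild-type and 1893 in knockout cells. Leaving out each library gave 197 to 659, 215 to 1353, 0 to 32, 1 to 10, 14 to 267 (RNA) and 0 to 671 (translational efficiency). The count of 0 for translational efficiency came without any one RNA library, with 1191 to 1284 genes at an unadjusted p under 0.05, and there the Slc20a1 log2 change was −1.77 to −1.73. The cause was not tested.

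With the replicate letter as a block the counts were 931 for wild-type footprints, 39 for the difference, 14 for untreated cells, 16 for RNA and 1560 for translational efficiency. Differences between A and B correlated across genes between untreated and treated libraries at 0.643 in wild-type footprints, 0.168 in knockout footprints and −0.00098 in RNA. No source says that a letter marks a shared batch, and the letters were not used as pairs.

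Xpr1 had the fewest footprints of the members, with 68 counts in the library where it was lowest.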
